A study of Sus scrofa with 21 samples.

Results

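Elastic fibre genes were examined in pig vessels sampled from the inside with a 3D-printed microbrush. The members were a fixed list of 9 genes named for their known part in the elastic fibre, ELN, FBN1, MFAP4, MFAP5, LTBP2, FBLN5, EMILIN1, LOX and LOXL1, and the rule uses no measured value. All 9 were found by symbol in a count table of 24358 genes, of which 14692 had a symbol. The table held 21 RNA-seq libraries from 3 pigs, made to compare endovascular devices that collect cells from the vessel wall. The microbrush gave 10 libraries, 5 from a peripheral kidney artery and 5 from a peripheral liver artery. A Nitinol wire gave 4 libraries from the same kinds of artery, and 4 libraries came from aorta and 3 from blood. Pigs 243K and 248K gave the microbrush, wire and blood libraries, and all 4 aorta libraries came from pig 237053. Aorta therefore cannot be told apart from that animal, and libraries of 1 pig are not separate animals, so p-values measure the spread between libraries. The sources used here give no genotype, treatment or age for any pig.

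Elastic fibres let arteries stretch and recoil. They consist of a core of cross-linked elastin laid down on a scaffold of fibrillin microfibrils, helped by assembly proteins and by enzymes that cross-link the elastin. In large arteries smooth muscle cells of the media make most of the elastin, and endothelial cells and fibroblasts can express several of the other components.

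Levels are estimated counts scaled to a common library size after correction for library composition (CPM). The correction factor was 0.339 in microbrush 6, 0.34 in wire 3 and up to 2.06 in microbrush 3, against 0.947 to 1.33 in aorta. A factor under 1 raises the CPM of a library, so the standing of a library against the aortic range can depend on it. No transcript lengths were available, so a gene was compared only with itself across libraries and never ranked against another gene. Total counts ran from 1144932 to 10188552 in microbrush libraries, from 1946286 to 11128400 in wire libraries and from 1603229 to 3033008 in aorta. Blood replicate 2 held 5634 counts and no member count, which allows each member up to 0.0532% of its counts, and it was left out of levels and tests. Microbrush 4 had 3831 detected genes and counts for 4 of 9 members. Wires 2 and 3, both from pig 248K, had 9715 and 10169 detected genes and counts for 4 and 5 members. The 9 members together took 0.0264% to 1.26% of the counts in microbrush libraries, 0.00243% to 0.226% in wire libraries, 0.271% to 0.548% in aorta and at most 0.01% in blood. The smooth muscle markers of a fixed list were all detected in aorta (11 of 11), where their summed level was 24900 to 51600 CPM, against 2740 to 99300 in microbrush and 1750 to 9890 in wire libraries. Endothelial markers summed to 209 to 2950 CPM in microbrush, 271 to 1650 in wire, 144 to 206 in aorta and 140 to 174 in blood libraries. In bulk RNA, fewer cells of a type and less RNA per cell cannot be told apart.

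Aorta, an elastic artery, was compared with blood. All 9 members were higher in aorta than in blood (9 of 9 by edgeR's quasi-likelihood test with Benjamini-Hochberg adjustment, against 9.82% of all genes called higher). Every aorta library lay above both blood libraries for all 9 members, as it did for 24.1% of all genes. The log2 difference was 11.84 ± 1.19 (SE) for ELN (adjusted p = 8.06e-21), 6.89 ± 0.81 for MFAP4 (adjusted p = 2.02e-15) and 6.84 ± 0.89 for LTBP2 (adjusted p = 1.33e-12). The smallest was 1.77 ± 0.47 for MFAP5 (adjusted p = 0.00101), a call that was lost without blood replicate 1, at 1.28. The pair of blood libraries limits this comparison, and with the shallow blood replicate 2 included only ELN was called (1 of 9, against 1.49% of all genes). In a common fit over all 20 libraries, where the groups share an estimate of spread, again only ELN was called (1 of 9, against 0.532%).

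ELN encodes tropoelastin, the soluble subunit of the elastic core (Sscrofa11.1 chromosome 3, 11214194 to 11245891). Blood replicate 1 held 2 ELN counts and blood replicate 3 held 0. The 4 aorta libraries held 833, 612, 959 and 1784 CPM. The microbrush libraries ran from 161 to 11750 CPM with a median of 1270. Every microbrush library therefore lay above both blood libraries, and the microbrush range enclosed the aortic range on either side.

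The wires were split by animal for ELN. Wires 1 and 4, from pig 243K, held 1504 and 859 CPM, inside the aortic range, and wires 2 and 3, from pig 248K, held 0 and 25.7 CPM. A count of 0 in wire 2 allows up to 1.27 CPM. Relative to the 2 counts in blood, mean ELN was 14700 times higher in microbrush (95% exact Poisson interval 4080 to 122000), 2900 times higher in wire (802 to 23900, and 1430 times without wire 1) and 5080 times higher in aorta libraries (1410 to 41900). These intervals cover counting error in blood only. The microbrush mean of 3040 CPM was raised by microbrush 6 and microbrush 9, at 8461 and 11750 CPM, and lay above the median of 1270.

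**Figure D1:**
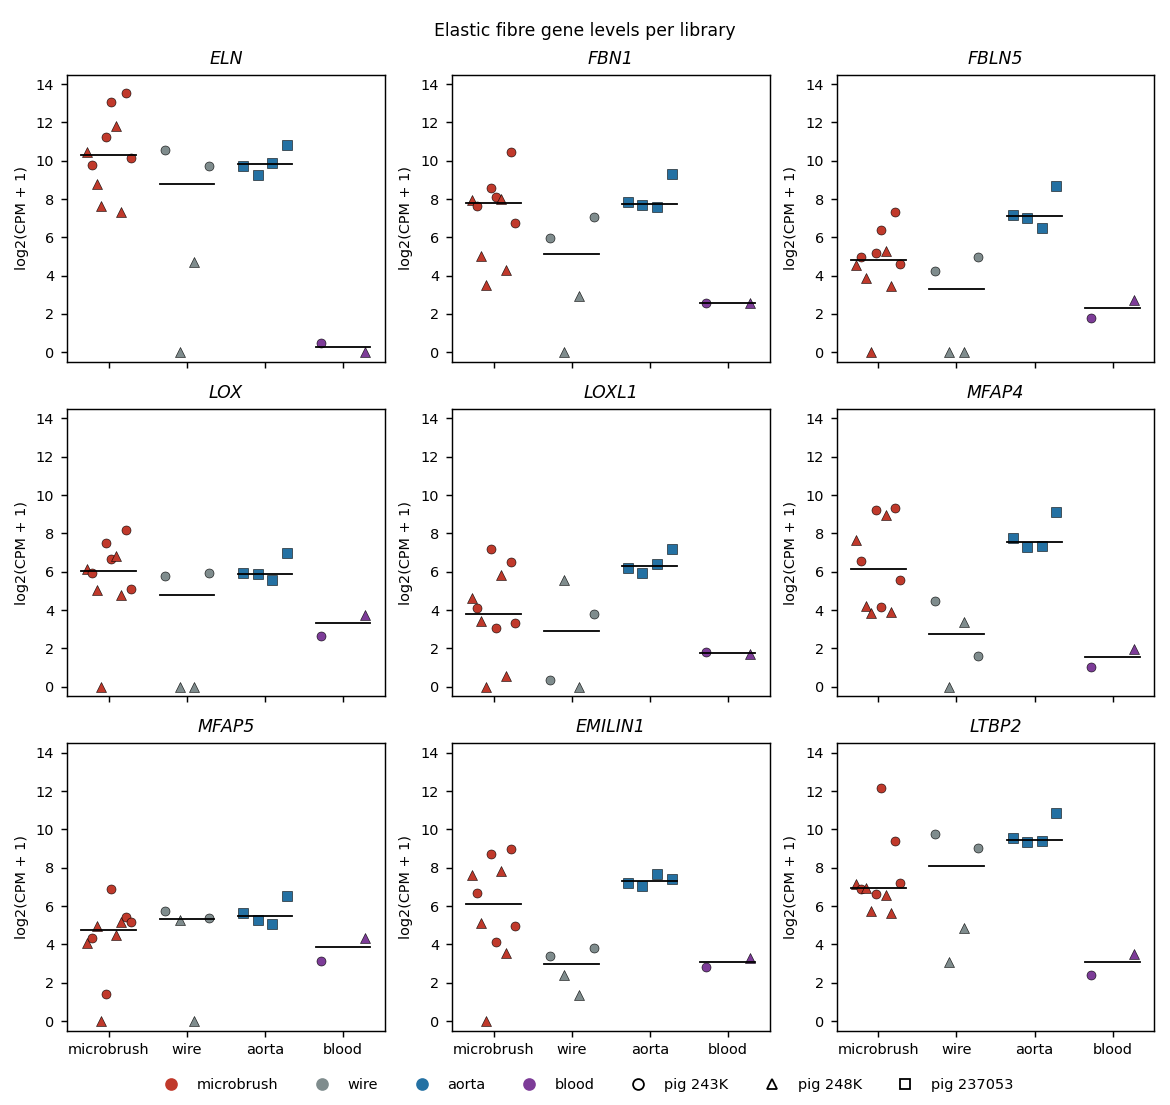
Levels of each of the 9 elastic fibre genes as log2(CPM + 1), 1 point per library with the shape giving the pig and a bar at the group median, by group. ELN in microbrush libraries runs from 161 to 11750 CPM around the 4 aorta libraries at 612 to 1784. Blood holds ELN at 0.414 and 0 CPM, and wire 2 is also at 0.

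FBN1 encodes fibrillin-1, the main protein of the microfibril (chromosome 1, 123102011 to 123359649). Its level was 226, 202, 193 and 640 CPM in aorta, 10.4 to 1390 in microbrush libraries (median 219), and 61.0, 0, 6.61 and 134 in wires 1 to 4. All 4 wires lay below all 4 aorta libraries, while the microbrush libraries spread over both. Blood held 4.97 and 4.93 CPM.

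LTBP2 encodes a fibrillin-related protein found on microfibrils (chromosome 7, 97744974 to 97852848). The aorta libraries held 753, 650, 669 and 1854 CPM. The wires held 858, 7.59, 28.04 and 521 CPM, again high in pig 243K and low in pig 248K. The microbrush libraries ran from 48.7 to 4662 CPM with a median of 120. Only microbrush 6 and microbrush 9, both from the liver artery of pig 243K, reached the aortic range or above, at 4662 and 677 CPM. Without microbrush 6 the microbrush mean was 167 ± 195 CPM (SD, n = 9), against 616 ± 1430 with it (n = 10).

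MFAP4 and MFAP5 encode microfibril-associated glycoproteins (chromosome 12, 60141488 to 60144214, and chromosome 5, 62742520 to 62757522). MFAP4 was at 216, 155, 161 and 561 CPM in aorta and at 21.6, 0, 9.52 and 2.02 in wires 1 to 4. The wires lay below every aorta library, and those of pig 243K were not set apart from those of pig 248K. Microbrush libraries ran from 13.4 to 630 CPM (median 69.8).

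MFAP5 showed the narrowest gap to blood in aorta and microbrush libraries. It was at 49.0, 38.4, 32.8 and 91.9 CPM in aorta, 52.6, 38.4, 0 and 41.0 in wires 1 to 4, and 7.67 and 19.1 in blood. Microbrush libraries ran from 0 to 118.98 CPM (median 26) and overlapped all other groups. Wire 2, with no ELN count, had MFAP5 at the level of aorta replicate 2.

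FBLN5 encodes fibulin-5, which binds tropoelastin and brings it to the microfibril (chromosome 7, 113423629 to 113526412). The aorta libraries held 145, 128, 90.3 and 409 CPM. Microbrush libraries ran from 0 to 157 CPM (median 26.9), and wires 1 to 4 held 17.8, 0, 0 and 30.8. Only microbrush 9 reached the aortic range.

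EMILIN1 encodes a glycoprotein found between elastin and microfibrils (chromosome 3, 112031910 to 112039928). Aorta held 147, 132, 205 and 172 CPM, and wires 1 to 4 held 9.65, 4.22, 1.59 and 13.2. Blood held 6.01 and 8.83 CPM, below both wires of pig 243K and above both wires of pig 248K. Microbrush libraries spread from 0 to 498 CPM (median 67.4).

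LOX and LOXL1 encode lysyl oxidases, the enzymes that oxidise lysines so that elastin can cross-link (chromosome 2, 125595115 to 125607026, and chromosome 7, 59481410 to 59505161). LOX held 60.5, 57.2, 46.7 and 124 CPM in aorta and 53.1, 0, 0 and 59.2 in wires 1 to 4. Wires of pig 243K lay in the aortic range and those of pig 248K had no count. Microbrush libraries ran from 0 to 293 CPM (median 65.7).

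LOXL1 held 72.4, 59.2, 82.4 and 145 CPM in aorta. Microbrush libraries ran from 0 to 145 CPM (median 12.9) and wires 1 to 4 held 0.254, 46.0, 0 and 12.6. Here the highest wire was wire 2, which had neither ELN, FBN1, FBLN5, LOX nor MFAP4 counts. The enzymes thus did not share an order over the wires.

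The microbrush and the wire were compared to ask whether the devices recover different transcripts. Means were higher by microbrush for 8 of 9 members, with a median log2 difference of 1.70 over the members and 0.17 over all genes tested. LTBP2 was among the 8 at 0.60, but at -1.14 without microbrush 6 and -2.04 by limma voom. No member passed the threshold (0 of 9, against 0% of 16439 genes, by edgeR). MFAP4 differed most, by 4.66 ± 1.33 on the log2 scale (adjusted p = 0.502), then EMILIN1 by 4.4 ± 1.29 (adjusted p = 0.585) and FBN1 by 2.50 ± 1.19 (adjusted p = 1). Those were the 3 members with an unadjusted p under 0.05. ELN differed by 2.27 ± 1.32 (adjusted p = 1). DESeq2 called MFAP4 at 4.83 (adjusted p = 0.00676) and EMILIN1 at 4.38 (adjusted p = 0.0175), 2 of 9 members against 0.614% of all genes, and limma voom called none.

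The split of the wires by animal showed in the comparison within each pig. In pig 248K, ELN was higher by microbrush by 6.95 on the log2 scale (edgeR adjusted p = 0.00303, 1 of 9 members against 0.279% of all genes). In pig 243K the ELN difference was 2.06 and no gene was called. The difference between the pigs itself was -4.53 ± 2.15 for ELN (pig 243K minus pig 248K, edgeR adjusted p = 0.226) and passed for 0 of 9 members (against 0% of all genes), with 3 at an unadjusted p under 0.05 and 3 called by DESeq2 (against 7.27%). Of these, FBLN5 and LOX had no count in either wire of pig 248K. The size of their edgeR difference therefore depends on the prior count, and that of DESeq2, which added none, on wires without a count. Each pig had 1 wire per artery, and wires 2 and 3 also had the fewest detected genes of the wires. The part of detection in these values was not tested.

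**Figure D2:**
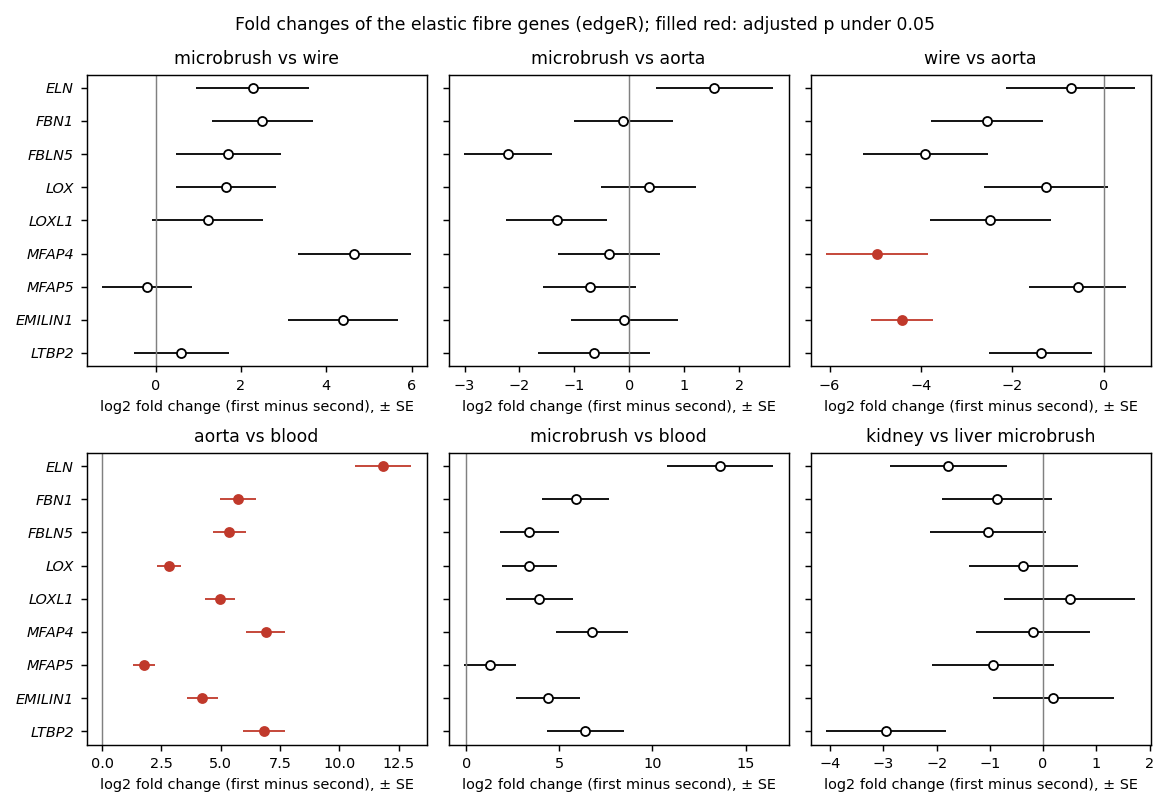
Log2 differences of the 9 members with their standard errors from edgeR, 1 panel for each of 6 comparisons, with members past the adjusted threshold filled red. All 9 members are red in aorta against blood, and EMILIN1 at -4.42 and MFAP4 at -4.96 are red in wire against aorta.

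In microbrush against aorta, ELN had the highest difference, 1.55 ± 1.07 (adjusted p = 1), and FBLN5 the lowest, -2.21 ± 0.80 (edgeR adjusted p = 0.503). LTBP2 differed by -0.65 ± 1.02 (adjusted p = 1), and by -2.59 (adjusted p = 0.201) without microbrush 6. No member was called (0 of 9, against 0.125% of 16776 genes), and 1, FBLN5, had an unadjusted p under 0.05. The members' median was -0.37 against -0.17 over all genes tested. DESeq2 called none (against 1.19%) and gave LTBP2 no adjusted p. Limma voom called FBLN5 at -2.53 (adjusted p = 0.000708) and LTBP2 at -2.95 (adjusted p = 0.000193), 2 of 9 against 4.48% of all genes.

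The proportions among the members set microbrush and aorta further apart than the levels did. Per 100 ELN counts of the same library, FBLN5 gave 9.42 to 22.9 counts in aorta and 0 to 6.29 in microbrush libraries. LOXL1 gave 8.13 to 9.68 in aorta and 0 to 6.0 in microbrush libraries. LTBP2 gave 69.8 to 106.2 in aorta and 2.70 to 55.1 in microbrush libraries. The groups did not overlap for these 3 of the 8 members other than ELN, in the direction of less per ELN by microbrush, which held for 1.03% of 16775 genes. FBN1, MFAP4, MFAP5, LOX and EMILIN1 per ELN count overlapped. ELN itself made up 49.6% to 75.6% of the members' counts by microbrush and 30.1% to 39.3% in aorta. Among the wires with ELN counts, LTBP2 stood at 57.1, 60.7 and 109.3 per 100 ELN, and the lowest of these lay above the highest microbrush library. The gap was narrow, 57.1 in wire 1 against 55.1 in microbrush 6, both from the liver artery of the same pig. Wire 2, with no ELN count, gave no value. The other members per ELN count overlapped between wire and microbrush. How many of all genes lay apart in this way was not counted. These shares are descriptions with no test, and all 4 aorta libraries share 1 animal.

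**Figure D3:**
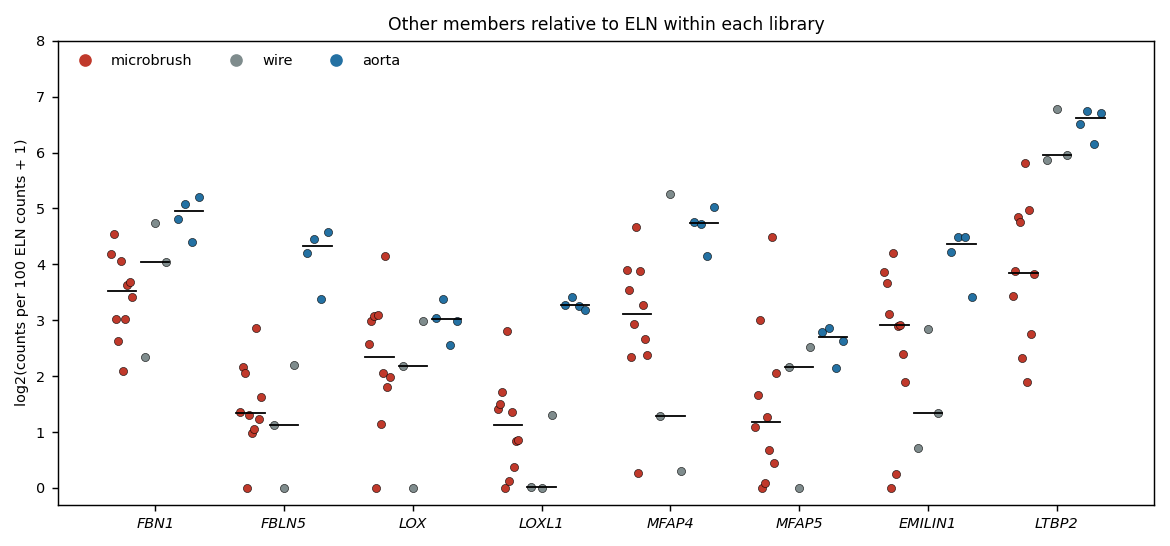
Counts of the 8 other members per 100 ELN counts of the same library, as log2(value + 1), 1 point per library with a bar at the group median. FBLN5, LOXL1 and LTBP2 lie higher in all 4 aorta libraries than in all 10 microbrush libraries.

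Wire against aorta gave the only member calls among the comparisons of vessel samples fitted by edgeR on all libraries of the groups compared. EMILIN1 was lower by wire, at -4.42 ± 0.68 on the log2 scale (edgeR adjusted p = 0.00734), and MFAP4 was lower at -4.96 ± 1.12 (adjusted p = 0.0349). This made 2 of 9 members lower, against 0.764% of 15313 genes called lower. The difference was negative for all 9 members, and 5 of them, FBN1, FBLN5, LOXL1, MFAP4 and EMILIN1, did not overlap between the groups, as was so for 13.7% of all genes in that direction. ELN differed by -0.72 ± 1.41 (adjusted p = 0.939). The MFAP4 call was lost without wire 3, without wire 4 or without any 1 aorta library (adjusted p from 0.0589 to 0.105), and both calls were lost in the common fit over all groups. Without wires 2 and 3, 4 members were called (against 8.47% of all genes): MFAP4, EMILIN1, FBLN5 at -2.92 and LOXL1 at -3.86. Marker lists moved in the same comparison, and their part in the member calls was not tested. Of the smooth muscle markers 5 of 11 were called lower by wire. Fibroblast markers summed to 37 to 893 CPM by wire and 3390 to 8340 in aorta, with 2 of 9 called lower. Red cell markers summed to 2040 to 35500 CPM by wire and at least 74 in aorta (median 90.9, no overlap), with 3 of 7 called higher. Platelet markers summed to 1570 to 11200 CPM by wire and 36.6 to 63.7 in aorta, with 3 of 5 called higher. Endothelial markers had 2 of 9 called higher and white cell markers 2 of 7. Of all genes, 2.8% were called higher by wire.

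Against blood, no member was called for the microbrush (0 of 9, against 0.0168% of 17832 genes) or the wire (0 of 9, against 0.0486% of 16461 genes) by edgeR. For the microbrush, 8 members had an unadjusted p under 0.05, and ELN came nearest at 13.63 ± 2.85 (adjusted p = 0.0845). All 10 microbrush libraries lay above both blood libraries for ELN, FBN1, MFAP4 and LTBP2 (4 of 9, against 0.841% of all genes). Summing counts per pig left 1 profile per pig and so 2 per group, and that fit called 8 members (against 6.29% of all genes). On separate libraries, limma voom called 6 (against 5.93%) and DESeq2 4 (against 1.59%). With pig as a block, ELN was called at 13.78 (adjusted p = 0.0332), 1 of 9 members against 0.0224% of all genes. For the wire, no member had an unadjusted p under 0.05, 0 of 9 lay above blood in every wire (against 3.21% of all genes), and DESeq2 called 2 (against 1.43%). Without wires 2 and 3, 4 members were called higher by wire than in blood (against 5.03%): ELN at 12.18, LTBP2 at 6.40, FBN1 at 4.14 and LOX at 2.50 on the log2 scale.

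The kidney and liver arteries were compared within the microbrush libraries. No member was called (0 of 9 by edgeR, against 0% of 15013 genes, and 0 of 9 by DESeq2, against 0.44%, or by limma voom). All 9 overlapped, where 0.286% of all genes lay wholly higher and 0.0933% wholly lower in kidney. LTBP2 had the only unadjusted p under 0.05, at -2.95 ± 1.13 for kidney minus liver (p = 0.0145, adjusted p = 1), and at -0.81 ± 0.90 without microbrush 6. Its kidney libraries were tightly grouped, from 96.9 to 148 CPM, and its liver libraries ran from 48.7 to 4662. In pig 248K alone the LTBP2 difference was 1.10, of the opposite sign. ELN stood at 1250 ± 742 CPM in kidney and 4830 ± 5150 in liver microbrush libraries (SD, n = 5 each), a log2 difference of -1.78 ± 1.10 (adjusted p = 1). In pig 243K the liver libraries held ELN at 8461 and 11750 CPM, above its kidney libraries at 870 to 2409. In pig 248K they overlapped, at 161 to 3551 in liver and 434 and 1427 in kidney. The edgeR fit of pig 243K alone also called no member (0 of 9, against 5.55% of 16224 genes). The device difference did not pass a test of change with organ for any member (0 of 9, against 0% of all genes, with 1, LOXL1, at an unadjusted p under 0.05).

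ELN and MYH11, the smooth muscle myosin heavy chain, varied least in proportion to each other in aorta. Aorta held 3.17 to 4.77 ELN counts per 100 MYH11 counts. Microbrush libraries ran from 3.44 in microbrush 5 to 1170 in microbrush 6. Wires 1 to 4 gave 175, 0, 19.3 and 2240. MYH11 was at most 859 CPM in microbrush 4, 6 and 8 and in all 4 wires, from both pigs, against at least 17800 in aorta. Of these 7 libraries, microbrush 6 and wires 1 and 4, from pig 243K, held ELN in or above the aortic range, with MYH11 at 722, 859 and 38.4 CPM. The other 4, from pig 248K, held ELN at 0 to 201 CPM, below every aorta library. MYH11 did not rank libraries as the smooth muscle list did. The list summed to 12600 CPM in microbrush 6, 3440 and 1750 in wires 1 and 4, and 9890 in wire 3, against at least 24900 in aorta. Microbrush 10, with MYH11 at 1850 CPM, summed to 2740.

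Members also differed from each other within these libraries. Microbrush 6 had ELN at 8461 and LTBP2 at 4662 CPM, each above all aorta libraries, and FBN1 and LOX also lay in or above the aortic range there. The composition correction of microbrush 6, a factor of 0.339 against 0.947 to 1.33 in aorta, raised these levels. As shares of its uncorrected total counts, ELN still lay above all aorta libraries and LTBP2 below aorta replicate 4. On that scale its FBN1 and LOX lay below every aorta library. Its MFAP4 and EMILIN1 were at 17.1 and 16.5 CPM, below every aorta library. Wires 1 and 4 likewise had ELN and LOX in the aortic range with MFAP4 and EMILIN1 below it. Microbrush 2 and microbrush 10, with MYH11 at 15600 and 1850 CPM, also had ELN in the aortic range with MFAP4 and EMILIN1 below it. MFAP4 and EMILIN1 were not the only members to part from ELN. FBLN5 and LOXL1 also lay below every aorta library in microbrush 2, 6 and 10 and in wires 1 and 4. FBN1 did so in microbrush 10 and in wires 1 and 4. LTBP2 did so in microbrush 2, microbrush 10 and wire 4, LOX in microbrush 10 and MFAP5 in microbrush 2. Microbrush 6 also held the highest endothelial marker sum of all libraries, 2950 CPM, and a platelet marker sum of 12100 CPM. The part of cell makeup in these levels was not tested.

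**Figure D4:**
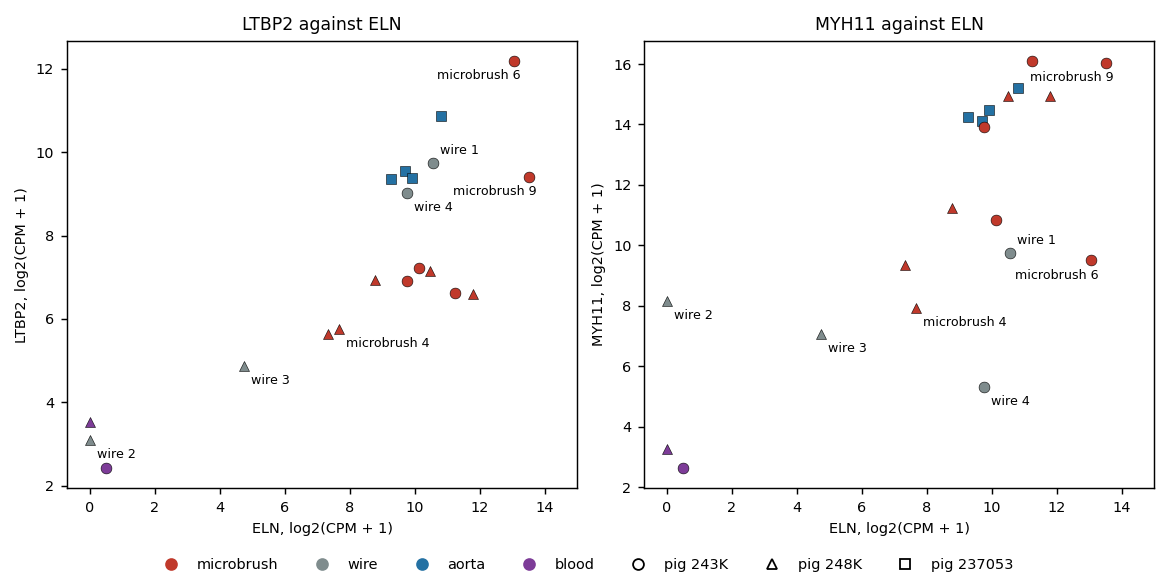
LTBP2 (left) and MYH11 (right) against ELN, all as log2(CPM + 1), 1 point per library with colour for the group and shape for the pig. Aorta libraries cluster at MYH11 of 17800 CPM and above, and microbrush 4, 6 and 8 and all 4 wires have MYH11 of at most 859 CPM with ELN from 0 to 8461.

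Other elastic fibre genes were taken from a list of 20 fixed by function. In aorta against blood 14 were higher and 1, EMILIN2, was lower, against 9.82% and 18.7% of all genes. In microbrush against aorta 0 of 20 were called, against 0.125% of all genes. The nearest was ADAMTSL4, which encodes a microfibril-associated protein, at 30.3 ± 15.5 CPM by microbrush and 186 ± 49.2 in aorta (log2 -2.61 ± 0.69, edgeR adjusted p = 0.178). EFEMP1 and THSD4, for fibulin-3 and another microfibril-associated protein, differed by -1.78 ± 0.89 and -1.58 ± 0.77 (adjusted p = 1 each). EMILIN2, a relative of EMILIN1, went the other way: 110 ± 69.2 CPM by wire and 19.5 ± 3.09 in aorta, a log2 difference of 2.55 (adjusted p = 0.0239), the only one of 19 tested that was called in wire against aorta (2.8% of all genes were called higher). Its blood level was 163 ± 60.5 CPM (SD, n = 2), above aorta, so EMILIN1 and EMILIN2 had opposite signs in both comparisons with aorta and blood.

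Genes that break down elastin or restrain its breakdown showed no call in microbrush against aorta (0 of 6 proteases, 0 of 5 inhibitors and 0 of 3 genes of the elastin receptor complex tested). Of all genes, 0.125% were called in that comparison. MMP2, a gelatinase that can cut elastin, ran from 0 to 290 CPM by microbrush (median 38.9) and from 96.3 to 349 in aorta (median 125). CTSS, the elastin-degrading cathepsin S, was at 59.4 ± 53.7 and 27.7 ± 9.11 CPM. TIMP3, an inhibitor of metalloproteinases held in the matrix, was at 430 ± 396 and 226 ± 131 CPM. CTSA, the protective protein of the elastin receptor complex, was at 56.3 ± 123 and 13.2 ± 4.09 CPM. In aorta against blood, MMP2 was higher by 5.35 (adjusted p = 8.27e-13) and CTSS lower, at -2.84 (adjusted p = 2.51e-08).

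Across the 14 microbrush and wire libraries, the genes whose level ranked most like ELN were LTBP4 (Spearman rho 0.974), CCDC80 (0.952), MYOF (0.947), SPARC (0.947) and MMP2 (0.943), of 9448 genes. Of the members, FBN1 (0.925), LOX (0.921) and FBLN5 (0.898) stood at ranks 19, 26 and 56. MFAP4 (0.789), EMILIN1 (0.732) and LTBP2 (0.723) came next, and LOXL1 (0.455) and MFAP5 (0.372) stood at ranks 2447 and 3146. Over the 10 microbrush libraries alone, LTBP4 was the only one of those 5 genes still among the nearest 5, at 0.976. These correlations are descriptions over libraries that share pigs and differ in depth and detection.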

How the data were processed

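RNA was extracted with a tissue kit at reduced volumes and made into SMARTer Pico libraries, per the labels' protocols. The authors deposited estimated counts per gene, not normalized, 11.9% of them not whole, with Salmon, DESeq2 and Sscrofa11.1 named in the submitters' processing notes. Their versions and whether counting used strand are not given in the sources used here. Counts were rounded here. A separate edgeR 4.0.16 fit (R 4.3.3) was made for the libraries of each comparison: filterByExpr filtering (minimum count 10), TMM scaling, robust quasi-likelihood test, Benjamini-Hochberg adjustment over all genes kept and a threshold of 0.05. Libraries under 100000 counts were left out, which removed blood replicate 2. Standard errors are the log2 difference over the root of F. Levels are CPM after TMM over 20 libraries. Gene positions come from the RefSeq table of Sscrofa11.1.

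The members and the lists were chosen with earlier results of these data known. Text names all 9 members, up to 4 genes per companion list with the smallest p in microbrush against aorta, the 5 genes most like ELN among those averaging 10 CPM, and MYH11 as a reference. EMILIN2 in blood, and the libraries singled out, were described after their values were seen. Replicate numbers follow accession order and pair nothing, so pig was the block. No libraries held identical counts. On simulated counts for microbrush against wire (15216 genes), the test recovered 14% of 16-fold and 92% of 256-fold changes. For microbrush against aorta (15290 genes) it recovered 64% and 98%. The same shares were 18% and 60% for microbrush against blood, and 0% and 4% for wire against blood. They were 8% and 90% for kidney against liver, 8% and 94% for wire against aorta, and 78% and 98% for aorta against blood. Where recovery was low, the absence of a call does not show that levels were equal. The simulation gave all genes of a comparison a common spread around the pooled profile of its libraries. It left out the low detection and the composition differences of single libraries, so recovery in the real data may differ. Alternatives were RLE scaling, DESeq2 1.42.0, limma 3.58.1 voom, other filters, a threshold of 0.01, a common fit, pig as a block, counts summed per pig, and subsets of pigs, organs and libraries.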

Additional observations from a re-analysis of the deposited data

Results flagged for a closer look

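Within groups of 4 to 10 libraries, the highest or lowest level was checked for a gap that is wide relative to the group's range. Levels were taken as log2(CPM + 1) for this check. Of 45 groups checked, 6 held such a library. The cutoff gives about 1 in 20 by chance for independent, normally spread values. These groups share libraries and hold levels of 0, so 6 of 45 is not a test against that rate. In aorta replicate 4, FBN1 was at 640 CPM with the next library at 226, and LTBP2 was at 1850 CPM with the next at 753. Microbrush 4, the library with 3831 detected genes, was lowest for FBLN5 at 0 (next 10.1 CPM) and for LOX at 0 (next 27.0 CPM). MFAP5 was lowest in wire 3 at 0 CPM, with the next wire at 38.4. Among the kidney microbrush libraries MFAP5 was lowest in microbrush 5 at 1.63 CPM, with the next at 16.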

How the results depend on the processing

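Counts of members called, out of 9, moved as follows, with the share of all genes called in brackets where not given above. Microbrush against wire went from 0 to 2 by DESeq2 and to 1 in pig 248K alone. Microbrush against aorta went from 0 to 2 by limma voom. Microbrush against blood went from 0 to 1 with no filter (0.0644%), 4 by DESeq2, 6 by limma voom, 1 with pig as a replicate block and 8 with counts summed per pig. Wire against aorta went from 2 to 1 at a threshold of 0.01 (0.927%), 0 in a common fit (0.746%) and 4 without wires 2 and 3. With single libraries left out it ranged from 1 to 2 (0.399% to 9.55%). Wire against blood went from 0 to 1 with no filter (0.0238%), 2 by DESeq2, 1 with pig as a replicate block (0.103%) and 4 without wires 2 and 3, and ranged from 0 to 1 with single libraries left out. The call added there was LTBP2 without wire replicate 1 (0.154%). Aorta against blood went from 9 to 1 in a common fit or with blood replicate 2. The difference of devices between pigs went from 0 to 3 by DESeq2 and to 2 without libraries under 5000 detected genes (3.22%). That last setting removed no library from wire against aorta or wire against blood, so it was not run there.

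Signs turned for these log2 differences, none of them called. In microbrush against wire, LTBP2 (0.60) became -2.04 by limma voom, -1.08 in kidney alone and -0.58 without wires 2 and 3. LOXL1 became -0.38 and MFAP5 0.19 in pig 248K alone, and MFAP5 became 0.48 in liver alone. In microbrush against aorta, LOX became -0.11 by RLE scaling or DESeq2 and -0.13 by limma voom. Without libraries under 5000 detected genes FBN1 became 0.01 and EMILIN1 0.06. In wire against aorta, ELN became 0.23 without wires 2 and 3. In wire against blood, EMILIN1 (-0.10) became 0.26 by RLE scaling or DESeq2, 0.01 with a minimum count of 50, 0.30 by limma voom, 0.49 with blood replicate 2 and 0.47 without wires 2 and 3, and with pig as a replicate block FBLN5 became -3.97 and LOX -4.66. In kidney against liver, limma voom gave 0.01 for ELN, 0.75 for FBN1, 0.08 for FBLN5 and 0.69 for LTBP2. Counts summed per pig gave -0.28 for LOXL1 and -0.54 for EMILIN1, which was -0.14 without libraries under 5000 detected genes and -0.47 in pig 243K alone. Pig 248K alone gave 0.67 for FBN1, 0.20 for FBLN5, 0.21 for LOX, -0.06 for LOXL1, 0.28 for MFAP5 and 1.10 for LTBP2. The causes were not tested.

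With single libraries left out, signs turned over these ranges. In microbrush against wire, LTBP2 ran from -1.14 to 1.53 and MFAP5 from -0.66 to 0.11. In microbrush against aorta, EMILIN1 ran from -0.50 to 0.05, FBN1 from -0.89 to 0.43, LOX from -0.06 to 0.69 and MFAP4 from -0.73 to 0.21. In wire against blood, EMILIN1 ran from -0.60 to 0.38. In kidney against liver, EMILIN1 ran from -0.57 to 1.37, FBN1 from -1.25 to 0.60, LOX from -0.96 to 0.43, LOXL1 from -0.92 to 1.43 and MFAP4 from -1.22 to 0.57. RLE scaling moved the median over all genes from 0.17 to 0.60 in microbrush against wire and from 0.13 to 0.69 in microbrush against blood. Leaving out microbrush 6 or 9 and wires 2 and 3 together was added after the data were seen. A member at 0 is limited by the 3-count floor of its library, such as 0.794 CPM in wire 3, the deepest library.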
